A study of Mus musculus with 12 samples.

Results

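The collagen genes of the mouse were described over 12 arrays of sorted liver cells and liver organoids. Every gene whose symbol has the form of a collagen chain (Col, a number, a, a number) was taken, which gave 44 of 19937 genes measured by array rows with a single symbol. For Col6a5 and Col6a6, which had several rows, the brightest row on average stood for the gene. The 44 genes comprised 11 fibrillar, 6 basement membrane, 2 multiplexin, 6 beaded filament, 9 fibril-associated, 1 anchoring fibril, 3 short-chain network, 4 transmembrane and 2 other collagens.

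The libraries fell into 4 groups of 3, all of strain background C57Bl6. Per the labels, the first held FACS-sorted, YFP+ cells of uninduced liver, titled hepatocytes, and the second held wild-type organoids, which are cell clusters grown in culture for 2 weeks. Yap, the transcriptional coactivator of the Hippo pathway, had been on in the liver for 3 weeks before the other organoids were cultured. Yap-off organoids were then kept without doxycycline, with Yap off for 2 weeks, and Yap-on organoids with doxycycline, with Yap on for 2 weeks. The promoter that drove Yap or YFP, animal ages and the origin of each replicate were not given in the labels. The p-values therefore reflect the spread among libraries alone, and that spread may be technical.

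Collagens are secreted or membrane proteins built from 3 chains wound into a triple helix. Fibrillar collagens form the rope-like fibrils of connective tissue and of liver scar, where stellate cells and fibroblasts are their main source. Collagen IV forms the sheet-like network of basement membranes, on which bile duct epithelium rests, and collagens XV and XVIII are proteoglycan-like collagens at the edge of that sheet. Epithelia, endothelia and hepatocytes can each make some of these chains, so that collagen transcripts are not in themselves a mark of fibroblasts.

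Values are log2 intensities after RMA, and a level is compared only between libraries for the same gene, since probes of different genes differ in brightness. The background level of an array was set at the 95th percentile of 1015 olfactory receptor genes, which lay between 3.20 and 3.65 over the 12 arrays. It lay between 3.48 and 3.65 in the Yap-off and between 3.23 and 3.29 in the Yap-on libraries. Median deposited intensities lay between 13.6 and 15.6.

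Markers of cell type did not follow the labels in 2 of the groups. The library labelled hepatocyte 2 and the libraries labelled wild-type organoid 1 and 3 had summed macrophage intensities (10 genes) between 14309 and 26447, against 180 to 487 in the other 9 libraries. Their summed intensities of 12 liver endothelial genes lay between 3706 and 16048, against 111 to 157 elsewhere. Krt19, a keratin of bile duct epithelium, read 4.95 in the library labelled hepatocyte 2 and 4.28 and 4.92 in wild-type organoids 1 and 3. It read 10.21 and 9.82 in those labelled hepatocyte 1 and 3, and 9.28 in wild-type organoid 2. The mature hepatocyte enzyme Cyp2e1 read 3.16, 10.14 and 3.22 in the 3 libraries labelled hepatocyte. In the wild-type organoids it read 10.03, 2.74 and 9.90. The hepatocyte list of 10 genes that holds Cyp2e1 differed far less. It summed to 21479, 13113 and 21887 under the hepatocyte label and 20097, 15806 and 19203 in wild-type organoids. Alb, the serum albumin gene, read 12.33, 11.53 and 12.13, then 12.23, 11.94 and 12.01. In macrophage, endothelial, Krt19 and Cyp2e1 values, the library labelled hepatocyte 2 and that labelled wild-type organoid 2 each stood apart from the other 2 of their group, in opposite directions. Whether labels were exchanged was not tested. The labels were kept, so comparisons with these groups compare libraries as labelled and may not compare the named tissues. Results that rest on these groups are given with all 12 arrays and without both libraries that stand apart.

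**Figure D1:**
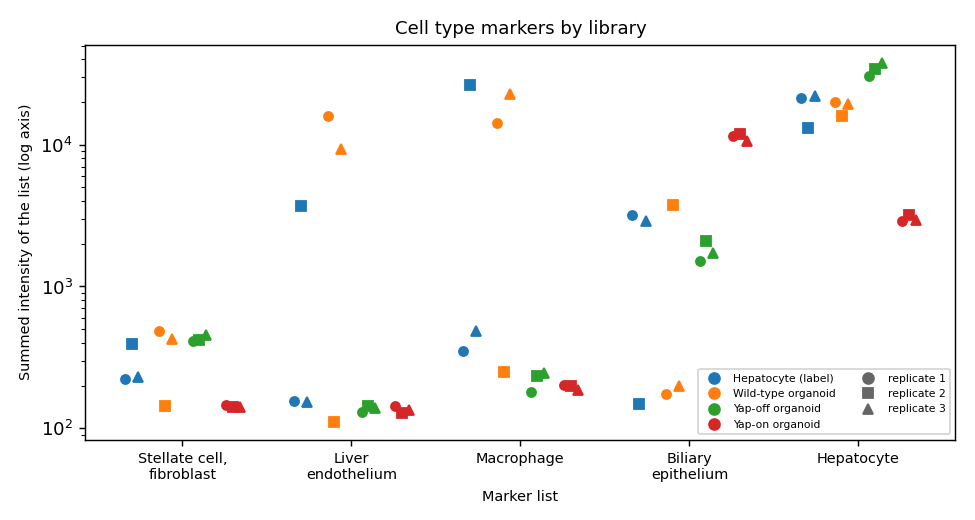
Summed linear intensity (log axis) of 5 marker lists in each of the 12 libraries, with colours for groups and symbols for replicates. The library labelled hepatocyte 2 and wild-type organoids 1 and 3 lie between 14309 and 26447 for macrophage genes, and the other libraries at or below 487.

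Most collagen transcripts varied little between libraries. Of the 44 genes, 27 were above the background level in every library, and Col28a1 and Col8a1 in none. Of all 19937 genes, 10363 were above it in every library and 4558 in none. The level comes from probes of other genes, so passing it does not show that a collagen was expressed. The difference between the highest and the lowest library exceeded 1 on the log2 scale for 11 collagens (25.0%), against 56.4% of all genes. The widest ranges were those of Col18a1 (3.28), Col12a1 (3.03), Col4a5 (2.69), Col4a2 (2.05), Col4a1 (1.79) and Col13a1 (1.70). Col14a1, Col6a1, Col26a1, Col9a3 and Col5a1 followed with ranges between 1.05 and 1.19. Of the basement membrane chains 3 of 6 exceeded 1, and of the fibrillar chains 1 of 11.

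**Figure D2:**
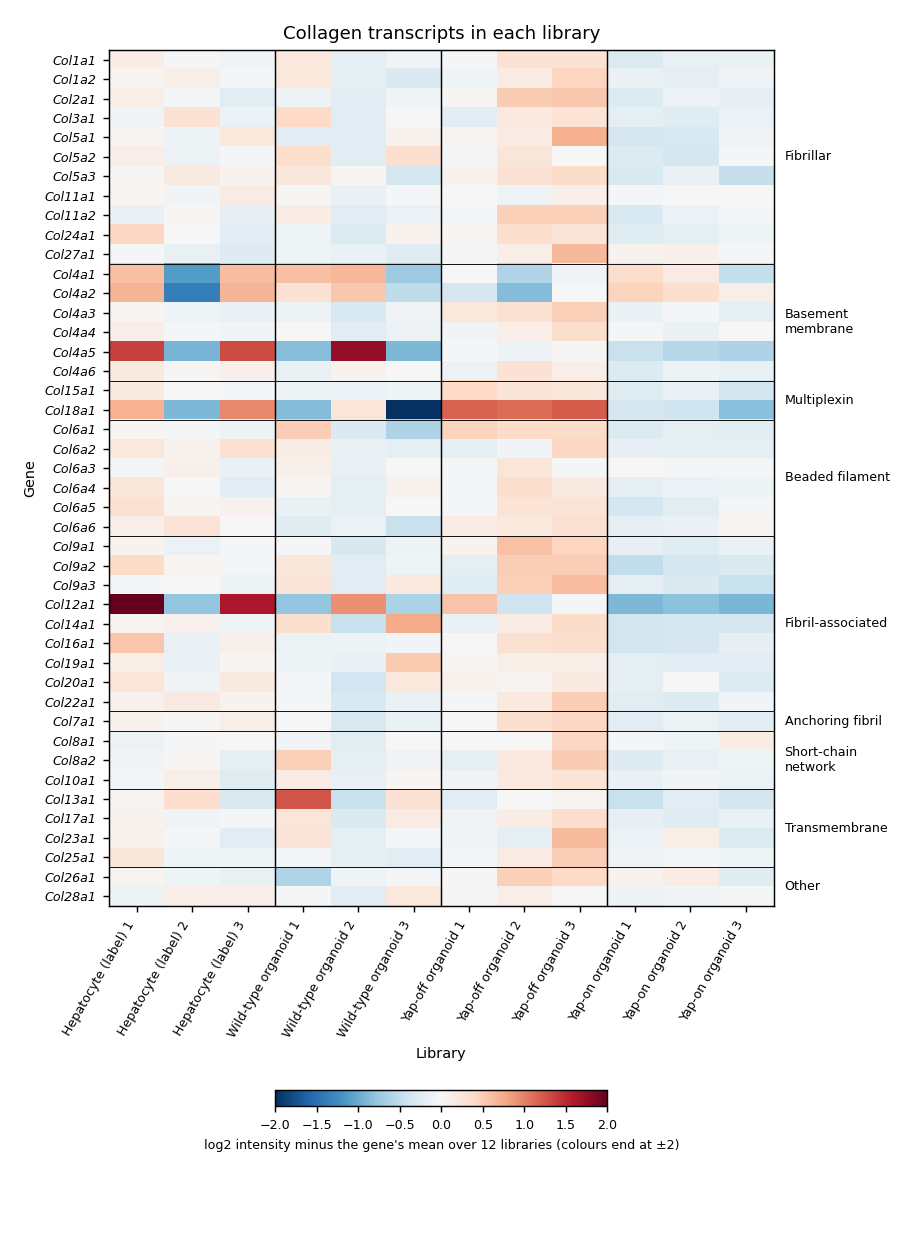
The 44 collagen genes (rows, by class) in the 12 libraries (columns), coloured by log2 intensity minus the gene's own mean over the libraries. Col18a1 is high in all 3 Yap-off libraries, Col12a1 and Col4a5 are high in wild-type organoid 2 and in those labelled hepatocyte 1 and 3, and the fibrillar rows are pale.

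Promoter windows (4) are shown for Col18a1 and Col4a5, which had 2 of the 3 widest ranges, and for the neighbour of Col4a5. Col12a1, which had the other, is named only. Col18a1 has 2 annotated starts on chromosome 10, from which a long and a short form are made. Col4a5 and Col4a6 lie head to head on chromosome X with starts 1343 bases apart, yet only Col4a5 was clearly detected. The windows are the 250 bases before each start, from RefSeq (GRCm38.p6), 5′ to 3′ on the gene's strand, and capitals mark matches to the motifs named next.
Col18a1, upstream start, chr10:77166531-77166780, minus strand: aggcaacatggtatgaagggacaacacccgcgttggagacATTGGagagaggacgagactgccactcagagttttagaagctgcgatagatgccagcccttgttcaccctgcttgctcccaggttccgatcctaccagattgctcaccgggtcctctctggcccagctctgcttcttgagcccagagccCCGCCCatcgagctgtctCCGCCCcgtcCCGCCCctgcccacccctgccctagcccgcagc
Col18a1, downstream start, chr10:77113706-77113955, minus strand: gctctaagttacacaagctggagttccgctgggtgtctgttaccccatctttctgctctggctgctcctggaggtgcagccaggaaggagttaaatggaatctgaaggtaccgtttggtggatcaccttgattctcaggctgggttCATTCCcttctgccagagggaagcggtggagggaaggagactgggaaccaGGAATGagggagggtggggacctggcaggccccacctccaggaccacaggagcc
Col4a5, chrX:141475169-141475418, plus strand: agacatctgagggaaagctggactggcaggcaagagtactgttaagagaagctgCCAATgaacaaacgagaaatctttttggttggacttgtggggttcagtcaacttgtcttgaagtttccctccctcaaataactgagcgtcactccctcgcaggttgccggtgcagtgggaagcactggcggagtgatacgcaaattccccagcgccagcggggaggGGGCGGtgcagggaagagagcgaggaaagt
Col4a6, chrX:141474077-141474326, minus strand: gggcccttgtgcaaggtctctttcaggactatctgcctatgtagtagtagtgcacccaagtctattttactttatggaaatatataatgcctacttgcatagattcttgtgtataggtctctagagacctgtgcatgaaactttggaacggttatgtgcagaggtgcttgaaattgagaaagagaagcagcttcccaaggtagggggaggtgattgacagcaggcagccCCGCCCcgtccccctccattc

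Each window was searched on both strands for 4 motifs that do not overlap here. They were the core bound by TEAD factors, the DNA partners of Yap (GGAATG), the CCAAT box (CCAAT), the GC box (GGGCGG) and the TATA box (TATAAA). The downstream start of Col18a1 had TEAD cores beginning 104 and 54 bases before it. Its upstream start had a CCAAT box 210 bases before it and GC boxes 61, 43 and 33 bases before it. Col4a5 had a CCAAT box at 196 and a GC box at 30 bases, and Col4a6 a GC box at 21 bases before the start. A TEAD core stood in 4 of 38 windows of 35 collagen genes (10.5%), against 12.6% of all 32851 windows. For the GC box the shares were 57.9% and 32.7%, for the CCAAT box 34.2% and 33.8%, and for the TATA box 13.2% and 12.4%. A match is a description of letters, and binding was not measured.

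Yap-on and Yap-off organoids had both seen Yap in the liver and differed in whether Yap stayed on in culture. They also differed in Xist, the RNA of the inactive X chromosome, which read 8.49 to 9.20 in the Yap-off and 3.14 to 3.20 in the Yap-on libraries. Yap state and sex of origin therefore cannot be told apart in any difference between these groups. Rose and fell mean higher and lower in Yap-on than in Yap-off organoids, and do not say which group changed. No collagen rose and 4 fell by limma over 12 arrays (adjusted p under 0.05): Col15a1, Col2a1, Col4a3 and Col9a1. That is 9.09% of the collagens, where 11.5% of all genes were called, 7.09% higher and 4.36% lower. At an unadjusted p under 0.05 the count was 17 of 44 (38.6%), against 27.2% of all genes. The difference, Yap-on minus Yap-off, was below 0 for 42 of 44 collagens, with a median of -0.32, whereas it was below 0 for 57.6% of all genes, with a median of -0.08. Olfactory receptor genes, which stand for the background, were below 0 in 92.1% of cases with a median of -0.15. After a renewed quantile normalization the olfactory median was -0.02, that of all genes 0.00 and that of the collagens -0.27, with 39 below 0.

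The 3 Yap-on libraries all lay below the 3 Yap-off libraries for 28 collagens (63.6%), against 28.9% of all genes and 40.3% of olfactory receptor genes. They lay above them for 1 collagen, Col4a2, against 24.6% of all genes. A fit of the 6 Yap-on and Yap-off arrays alone called 15 collagens, 34.1% of them where 31.2% of all genes were called. These were Col4a2, higher, and 14 lower, among them the 4 named and Col18a1, Col6a1, Col4a5 and Col12a1. Without both libraries that stand apart, 13 fell and 0 rose, against 29.7% of all genes called (18.9% higher, 10.8% lower). The count depended on single libraries: it was 9 without Yap-off organoid 1 and 1 (Col15a1) without each of the other 5 Yap-off and Yap-on libraries. The share of all genes called in these fits was not counted, so this dependence cannot be called particular to the collagens.

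**Figure D3:**
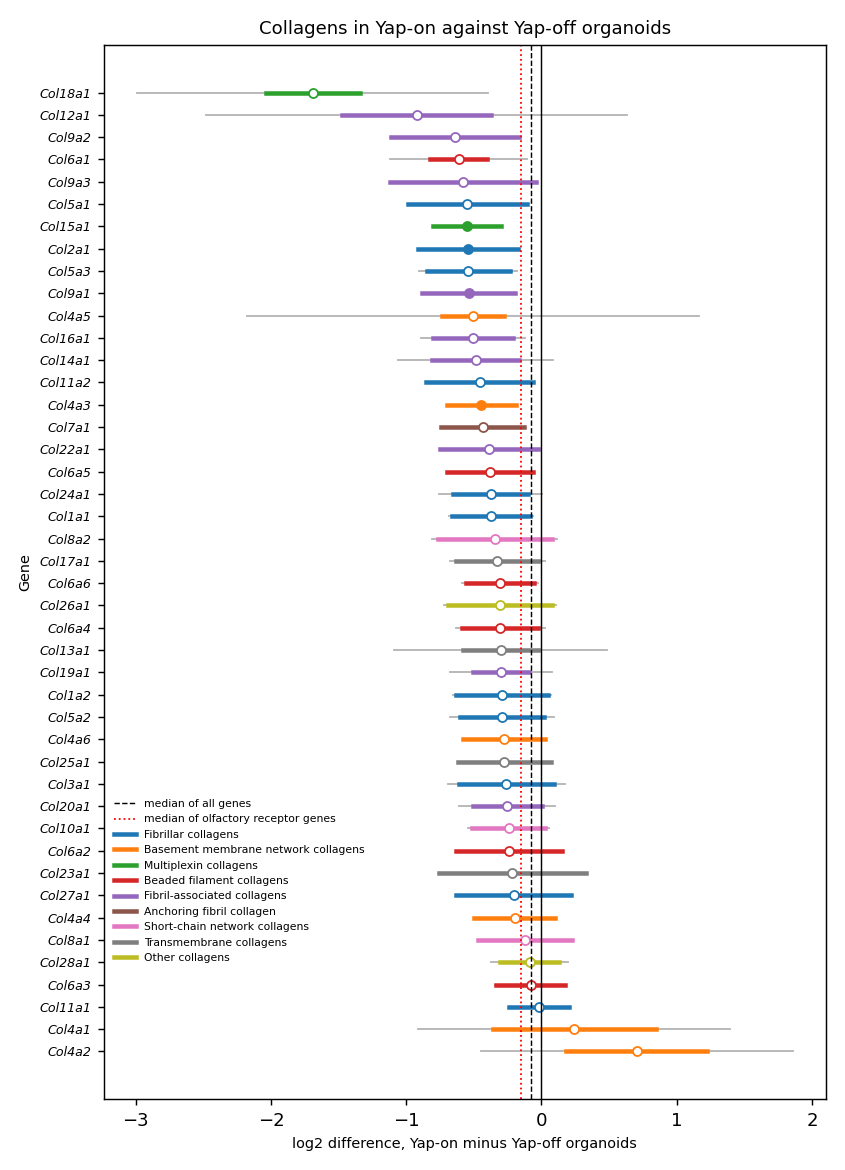
Log2 difference, Yap-on minus Yap-off organoids, for the 44 collagens. Circles are the differences (filled where called over 12 arrays), grey lines the 95% intervals of the fit on 12 arrays and coloured lines those of the fit on 6 arrays. All circles but those of Col4a1 and Col4a2 lie left of 0, and Col18a1 lies farthest left at -1.69.

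Col18a1 encodes the collagen XVIII chain, whose C-terminal fragment is endostatin, and had the largest difference between Yap-on and Yap-off organoids. It read 7.12, 7.07 and 7.15 in the Yap-off libraries and 5.61, 5.54 and 5.11 in the Yap-on libraries, so that the groups were far apart. The libraries labelled hepatocyte read 6.64, 5.05 and 6.91, and the wild-type organoids 5.07, 6.18 and 3.87. Both of these groups were spread widely, with libraries 1 and 3 of the first close to the Yap-off level. The Yap-on level was 3.23-fold below the Yap-off level (log2 difference -1.69, SE 0.58, 95% interval -2.99 to -0.39, limma adjusted p = 0.094), which missed the threshold. The spread shared by all 4 groups entered that test, and on the 6 arrays alone the adjusted p was 0.00025. The array row does not separate the 2 annotated starts shown above.

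Col15a1 encodes the other multiplexin. It read 4.34, 4.18 and 4.16 in the Yap-off and 3.69, 3.78 and 3.56 in the Yap-on libraries, without overlap. The libraries labelled hepatocyte (4.11, 3.94 and 3.90) and the wild-type organoids (3.83, 3.82 and 3.84) lay between them. Col15a1 fell by 0.55 in Yap-on against Yap-off organoids (SE 0.10, limma adjusted p = 0.0086). It was called under all 14 alternatives, with adjusted p between 0.0054 and 0.046. Endothelial and stromal cells are known sources of collagen XV. The endothelial list summed to between 129 and 144 in all 6 of these libraries, and the stellate cell and fibroblast list to 413 to 458 in the Yap-off and 142 to 147 in the Yap-on libraries. Without its members Reln and Dcn, the other 12 genes of that second list summed to 138 to 160 in the Yap-off and 121 to 125 in the Yap-on libraries. The part of endothelial and stromal cells in the difference was not tested.

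Among basement membrane chains, Col4a1 and Col4a2, the 2 chains of the common collagen IV network, start 21 bases apart on opposite strands of chromosome 8 (GRCm38.p6). Col4a1 read 7.07, 5.36 and 7.09 in the libraries labelled hepatocyte, 7.07, 7.14 and 5.74 in wild-type, 6.47, 5.87 and 6.40 in Yap-off and 6.83, 6.63 and 6.003 in Yap-on organoids. Col4a2 read 6.44, 4.39 and 6.44, then 6.05, 6.31 and 5.26, then 5.42, 4.90 and 5.75, then 6.21, 6.10 and 5.88 in the same order. Both chains were lowest in the library labelled hepatocyte 2 and low in wild-type organoid 3. They were above background in every library. They were also the only collagens whose mean was higher in Yap-on than in Yap-off organoids. The difference was 0.24 for Col4a1 (SE 0.52, 95% interval -0.91 to 1.40, limma adjusted p = 0.80), and it was -0.05 after renewed quantile normalization. For Col4a2 it was 0.70 (SE 0.52, interval -0.45 to 1.86, adjusted p = 0.41), with an adjusted p of 0.049 on the 6 arrays alone.

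Col4a5, a chain of the specialised collagen IV networks altered in Alport syndrome, followed another pattern. It read 6.12, 3.82 and 6.07 in the libraries labelled hepatocyte. The wild-type organoids read 3.91, 6.51 and 3.86. The Yap-off libraries read 4.72, 4.66 and 4.78 and the Yap-on libraries 4.31, 4.18 and 4.15. Thus the 3 libraries of the first 2 groups with high Krt19 had the highest Col4a5, and the 3 rich in macrophage transcripts the lowest. Krt19 itself was highest in the Yap-on libraries, at 12.01 to 12.25, where Col4a5 was low. The Yap-on minus Yap-off difference was -0.51 (SE 0.75, 95% interval -2.17 to 1.16, limma adjusted p = 0.70), without overlap and with an adjusted p of 0.0081 on the 6 arrays. Col4a5 is X-linked. Besides the difference in Xist between Yap-off and Yap-on libraries, Xist was high in the library labelled hepatocyte 1 (8.82) and low in that labelled hepatocyte 2 (2.995). It was high again (8.9994) in the third library of that group. In wild-type organoids it read 3.30, 3.14 and 3.26. High Xist thus went with high Col4a5 under the hepatocyte label, while wild-type organoid 2 had high Col4a5 and low Xist. The part of sex in the difference was not tested.

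The remaining chains of collagen IV lay near the background level. Col4a3 read 3.78, 3.87 and 4.04 in the Yap-off and 3.43, 3.54 and 3.39 in the Yap-on libraries, 3.60, 3.48 and 3.43 in those labelled hepatocyte and 3.46, 3.26 and 3.50 in wild-type organoids. Its Yap-off values stood above those of all 9 other libraries, close to the background level of the arrays. Col4a3 fell by 0.44 in Yap-on against Yap-off organoids (SE 0.11, limma adjusted p = 0.033) and was called under 6 of 14 alternatives. Col4a4, its partner chain, lay between 3.50 and 4.08 and differed by -0.20 (adjusted p = 0.33). Col4a6 was above background in 1 of 12 libraries, at 2.87 to 3.42. Of the 6 collagen IV chains 1 fell and 0 rose by limma (16.7%, against 11.5% of all genes). The difference was below 0 for 4 of them. Lower without overlap were 2 (33.3%, against 28.9% of all genes and 40.3% of olfactory receptor genes).

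**Figure D4:**
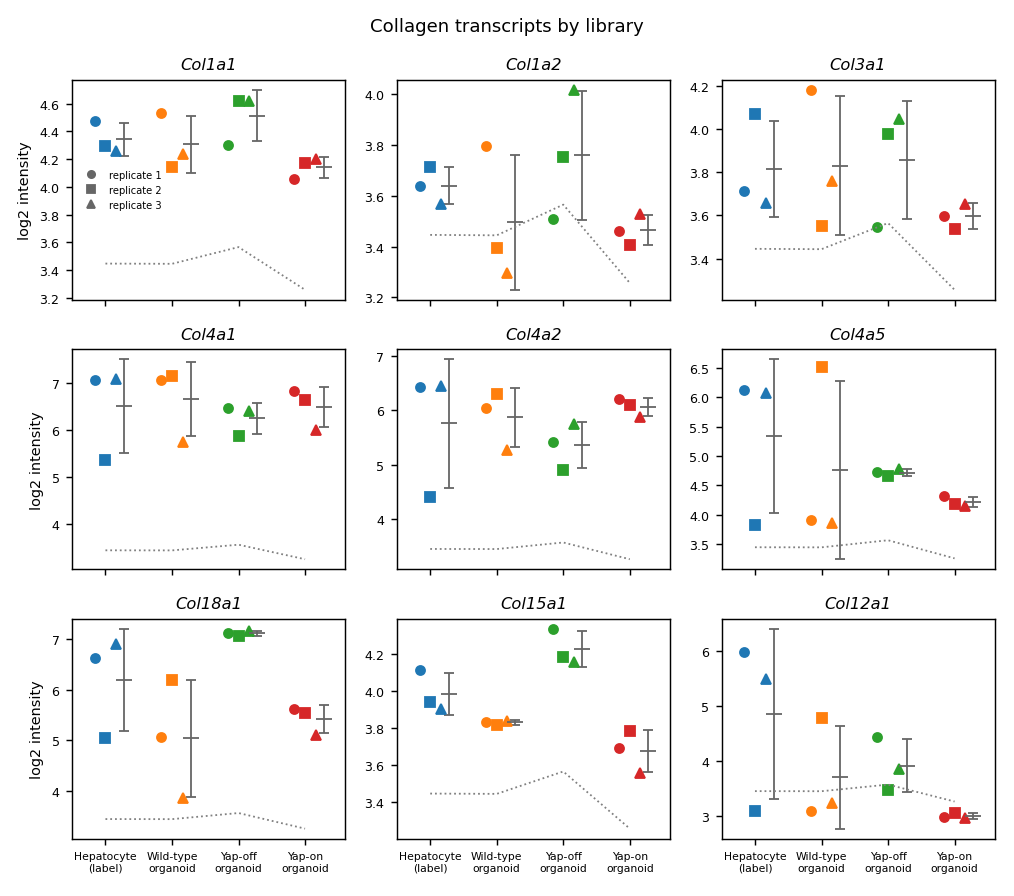
Log2 intensity of 9 collagens in each library (symbols for replicates), with group mean and SD (bars) and the mean background level of each group (dotted line). Col18a1 reads above 7 in the 3 Yap-off libraries and below 5.7 in the 3 Yap-on libraries. Axes differ between genes and do not start at 0.

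Fibrillar collagens varied little between libraries, and 1 of 11 ranged over more than 1 on the log2 scale. All 11 nonetheless had a lower mean in Yap-on than in Yap-off organoids. Above background in all 12 libraries were 7 of 11, where this held for 10363 of all 19937 genes. Col1a1, Col1a2 and Col3a1, the main collagens of liver scar, were named after their values were seen. Col1a1 read 4.48, 4.29 and 4.26 in the libraries labelled hepatocyte, 4.54, 4.15 and 4.24 in wild-type, 4.30, 4.62 and 4.62 in Yap-off and 4.06, 4.17 and 4.20 in Yap-on organoids. It was above background in all libraries and ranged over 0.57 on the log2 scale. The Yap-on minus Yap-off difference was -0.37 (SE 0.14, 95% interval -0.68 to -0.06, limma adjusted p = 0.12). Col1a2 lay between 3.30 and 4.02 and Col3a1 between 3.54 and 4.18 over the 12 libraries, both near the background level. Their differences were -0.29 (adjusted p = 0.27) and -0.26 (adjusted p = 0.41), and the groups overlapped for both.

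Col27a1, Col2a1 and Col11a2, of which the last 2 are best known from cartilage, are given in full because their array rows were the brightest of the class, which does not rank the transcripts. Col2a1 read 4.68, 4.51 and 4.35 in the libraries labelled hepatocyte, 4.45, 4.35 and 4.48 in wild-type, 4.58, 5.06 and 5.10 in Yap-off and 4.28, 4.43 and 4.39 in Yap-on organoids. Yap-off organoids 2 and 3 stood apart from the other 10 libraries. Col2a1 fell by 0.54 in Yap-on against Yap-off organoids (SE 0.15, limma adjusted p = 0.046) and was called under 6 of 14 alternatives. Col11a2 read 4.34, 4.51 and 4.31, then 4.62, 4.26 and 4.36, then 4.44, 4.96 and 4.95, then 4.17, 4.37 and 4.44 in the same order of groups. It too was highest in Yap-off organoids 2 and 3, with a difference of -0.46 (SE 0.17, adjusted p = 0.11). Col27a1 read 5.01, 4.91 and 4.80, then 4.96, 4.93 and 4.81, then 5.03, 5.19 and 5.71, then 5.13, 5.15 and 5.03. Its highest value was that of Yap-off organoid 3, and the groups overlapped (difference -0.21, adjusted p = 0.44). In all, 1 of 11 fibrillar collagens fell and 0 rose by limma (9.09%, against 11.5% of all genes). An unadjusted p under 0.05 was found for 5 (45.5%, against 27.2%), and the median difference was -0.37. Lower without overlap were 6 (54.5%, against 28.9% of all genes and 40.3% of olfactory receptor genes). The genes of the class not yet named were Col5a1 (-0.55), Col5a3 (-0.54), Col24a1 (-0.38), Col5a2 (-0.29) and Col11a1 (-0.02), none called.

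Fibril-associated collagens coat fibrils without forming them. Col12a1, which binds the surface of collagen I fibrils, ranged most widely and was singled out after its values were seen. It read 5.98, 3.09 and 5.49 in the libraries labelled hepatocyte. The wild-type organoids read 3.09, 4.77 and 3.23, so that the libraries with high Krt19 in these 2 groups were the high ones. The Yap-off libraries read 4.43, 3.46 and 3.85 and the Yap-on libraries 2.97, 3.05 and 2.95, all of the latter below background. The Yap-on minus Yap-off difference was -0.92 (SE 0.70, limma adjusted p = 0.42; 0.024 on the 6 arrays). Lox, the enzyme that crosslinks collagen, was likewise named after its values were seen. It read 9.24 and 8.99 in those labelled hepatocyte 1 and 3, and between 2.82 and 3.80 in the other 10 libraries. Wild-type organoid 2 had high Col12a1 without high Lox (3.22).

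Col9a1, a chain of collagen IX, read 3.29, 3.80 and 3.66 in the Yap-off and 3.06, 2.99 and 3.09 in the Yap-on libraries. The libraries labelled hepatocyte read 3.30, 3.11 and 3.19 and the wild-type organoids 3.18, 2.90 and 3.12. Only Yap-off organoids 2 and 3 stood above the background of their arrays. Col9a1 fell by 0.54 in Yap-on against Yap-off organoids (SE 0.14, limma adjusted p = 0.038) and was called under 6 of 13 alternatives. Col9a2, its partner, read 4.97, 4.65 and 4.56, then 4.83, 4.40 and 4.52, then 4.41, 5.10 and 5.10, then 4.12, 4.25 and 4.32, in the order hepatocyte label, wild-type, Yap-off, Yap-on. The Yap-off libraries 2 and 3 were again high, and the difference was -0.64 (SE 0.21, adjusted p = 0.077). Col16a1 read 5.19, 4.50 and 4.74, then 4.51, 4.53 and 4.58, then 4.64, 4.94 and 4.97, then 4.27, 4.30 and 4.46. Its Yap-on libraries were the lowest, with a difference of -0.50 (SE 0.17, adjusted p = 0.092). Col22a1, found at tissue junctions, read 4.68, 4.78 and 4.67, then 4.56, 4.29 and 4.46, then 4.57, 4.79 and 5.10, then 4.39, 4.34 and 4.55. The difference was -0.39 (SE 0.14, adjusted p = 0.12), with no overlap. The other genes of this class, Col9a3 (-0.58), Col14a1 (-0.49), Col19a1 (-0.30) and Col20a1 (-0.25), were not called. Of the 9 genes of this class 1 fell and 0 rose by limma (11.1%, against 11.5% of all genes). An unadjusted p under 0.05 was found for 5 (55.6%, against 27.2%). Lower without overlap were 8 (88.9%, against 28.9% of all genes and 40.3% of olfactory receptor genes).

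Beaded filament collagens, of the collagen VI family, surround cells in most stroma. Col6a1 read 4.20, 4.14 and 4.06 in the libraries labelled hepatocyte, 4.65, 3.87 and 3.55 in wild-type, 4.60, 4.53 and 4.52 in Yap-off and 3.89, 3.98 and 3.95 in Yap-on organoids. Yap-on and Yap-off libraries were tight and apart (difference -0.61, SE 0.23, limma adjusted p = 0.12; 0.0026 on the 6 arrays). Col6a2 read 4.48, 4.34 and 4.57, then 4.41, 4.11 and 4.06, then 4.07, 4.21 and 4.68, then 4.11, 4.07 and 4.07. Here Yap-on and Yap-off overlapped, with a difference of -0.24 (adjusted p = 0.37). Col6a6 read 4.63, 4.78 and 4.50, then 4.26, 4.39 and 4.07, then 4.66, 4.73 and 4.81, then 4.32, 4.37 and 4.57. It was lowest in wild-type organoid 3, and the Yap-on minus Yap-off difference was -0.31 (SE 0.13, adjusted p = 0.15). None of the 6 was called by limma, and 3 had an unadjusted p under 0.05 (against 27.2% of all genes). Col6a4 and Col6a5 differed by -0.30 and -0.38. Col6a3, the third chain of the common collagen VI molecule, lay at 3.18 to 3.57, near background.

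Col7a1, which forms the anchoring fibrils beneath epithelia, read 4.32, 4.25 and 4.35 in the libraries labelled hepatocyte, 4.25, 3.94 and 4.10 in wild-type, 4.24, 4.58 and 4.65 in Yap-off and 4.02, 4.11 and 4.02 in Yap-on organoids. The Yap-on libraries lay below the Yap-off ones, with a difference of -0.44 (SE 0.13, limma adjusted p = 0.058). The short-chain collagens make open lattices. Col10a1, the collagen of growth cartilage, read 4.94, 5.10 and 4.75, then 5.14, 4.83 and 5.01, then 4.93, 5.18 and 5.25, then 4.85, 4.93 and 4.86. The Yap-on libraries lay just below the Yap-off ones, with a difference of -0.24 (adjusted p = 0.27). Col8a2, a chain of collagen VIII, read 3.49, 3.56 and 3.35, then 4.02, 3.34 and 3.47, then 3.37, 3.73 and 4.05, then 3.28, 3.39 and 3.45. Its groups overlapped, with a difference of -0.34 (adjusted p = 0.31). Its partner chain Col8a1 read 2.78, 2.88 and 2.90, then 2.82, 2.67 and 2.88, then 2.90, 2.89 and 3.32, then 2.87, 2.82 and 3.05. Every one of these values was below the background of its array. None of the 3 short-chain collagens was called by limma, and 0 had an unadjusted p under 0.05.

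Transmembrane collagens span the cell surface. Col13a1 read 3.83, 4.12 and 3.49 in the libraries labelled hepatocyte, 5.03, 3.34 and 4.07 in wild-type, 3.56, 3.79 and 3.84 in Yap-off and 3.34, 3.55 and 3.40 in Yap-on organoids. It was highest in the libraries rich in endothelial and macrophage transcripts, and the part of those cells in its level was not tested. The Yap-on minus Yap-off difference was -0.30 (adjusted p = 0.61 by limma). Col23a1 read 3.98, 3.85 and 3.68, then 4.14, 3.71 and 3.85, then 3.84, 3.69 and 4.52, then 3.77, 4.02 and 3.62 in the order hepatocyte label, wild-type, Yap-off, Yap-on. Only Yap-off organoid 3 stood out, and the Yap-on minus Yap-off difference was -0.21 (adjusted p = 0.56). Col17a1, the hemidesmosome collagen, read 3.64, 3.50 and 3.54, then 3.81, 3.29 and 3.73, then 3.50, 3.73 and 3.92, then 3.41, 3.33 and 3.43. It lay near background, with a difference of -0.33 (adjusted p = 0.21). Col25a1 differed by -0.27. Of the other collagens, Col26a1 read 4.48, 4.33 and 4.27, then 3.82, 4.33 and 4.38, then 4.45, 4.89 and 4.82, then 4.49, 4.56 and 4.18. It was lowest in wild-type organoid 1, and Yap-on and Yap-off libraries overlapped (difference -0.31, adjusted p = 0.32). Col28a1 read 2.93, 3.17 and 3.13, then 3.02, 2.81 and 3.25, then 3.01, 3.16 and 3.02, then 2.94, 2.99 and 3.01, all below the background of their arrays. None of these 6 collagens (the 4 transmembrane and 2 others) was called by limma in Yap-on against Yap-off organoids, and 0 had an unadjusted p under 0.05.

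In the other 5 comparisons, limma on 12 arrays called 0 collagens. These comparisons share libraries with each other. The share of all genes called was 5.47% for Yap-on and 2.61% for Yap-off against wild-type organoids. It was 0.0502% for wild-type, 1.9% for Yap-off and 6.19% for Yap-on organoids against the libraries labelled hepatocyte. At an unadjusted p under 0.05, Yap-on against wild-type organoids had 0 collagens, against 22.1% of all genes. Yap-off against wild-type organoids had 14 (31.8%), against 19.1% of all genes. Against the libraries labelled hepatocyte, wild-type organoids had 1 (2.27%, against 8.84%), Yap-off organoids 6 (13.6%, against 13.0%) and Yap-on organoids 7 (15.9%, against 19.6%). Yap-off minus wild-type differences were above 0 for 37 of 44 collagens with a median of 0.23, where the median of all genes was 0.05.

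Without both libraries that stand apart, calls appeared in each of these comparisons, as they did for a large share of all genes. Both libraries were chosen for marker values in these same data. Under the hepatocyte label and in wild-type organoids, Col4a5, Col12a1 and Col18a1 divided the libraries as Krt19 did. The choice itself therefore narrowed their spread, and their small p-values in these fits are no independent support. Yap-off organoids against wild-type organoids had 7 collagens higher and 1 lower, against 32.3% of all genes called (18.2% higher, 14.1% lower). Col18a1 led with 2.64 (SE 0.30, limma adjusted p = 0.00011), followed by Col4a5 with 0.84 and Col12a1 with 0.75, and the lower one was Col13a1 (-0.82). With all 12 arrays Col18a1 differed by 2.07 (SE 0.58, adjusted p = 0.097), without overlap. Yap-on organoids against wild-type organoids had 2 higher, Col18a1 (0.95) and Col4a5 (0.33), and 3 lower, Col13a1 (-1.13), Col14a1 (-0.89) and Col5a2 (-0.55), against 41.0% of all genes (24.6% higher, 16.4% lower). The Col4a5 difference was -0.55 with all 12 arrays.

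Against the libraries labelled hepatocyte 1 and 3, Col12a1 and Col4a5 were lower in each organoid group, with wild-type organoid 2 left out. That organoid itself read 6.51 for Col4a5, above the libraries labelled hepatocyte 1 and 3 (6.12 and 6.07). For Col12a1 it read 4.77, below them (5.98 and 5.49). Col12a1 was lower by a log2 difference of -2.58 in wild-type, -1.82 in Yap-off and -2.75 in Yap-on organoids (limma adjusted p = 8.4e-05, 0.0016 and 5.7e-05). For Col4a5 the differences were -2.21, -1.37 and -1.88 (adjusted p = 8.5e-07, 8.5e-05 and 2.6e-06). These p-values rest on the same choice of libraries, which left 2 under the hepatocyte label and 2 wild-type organoids. Col18a1 was lower in wild-type (-2.30) and Yap-on organoids (-1.35), and its difference in Yap-off organoids was 0.34 (adjusted p = 0.58). Col13a1 was higher in wild-type organoids (0.89), Col4a2 lower in Yap-off (-1.08) and Col16a1 lower in Yap-on organoids (-0.62). In wild-type organoids these make 1 collagen higher and 3 lower, against 30.7% of all genes called (12.4% higher, 18.3% lower). In Yap-off organoids they make 3 lower, against 14.0% of all genes (5.23% higher, 8.78% lower). In Yap-on organoids they make 4 lower, against 21.6% of all genes (12.4% higher, 9.17% lower). With all 12 arrays none was called. Col12a1 then differed by -1.155 in wild-type, -0.94 in Yap-off and -1.86 in Yap-on organoids (limma adjusted p = 0.66, 0.67 and 0.17). Col4a5 differed by -0.58, -0.62 and -1.12 in that order (adjusted p = 0.83, 0.81 and 0.44). Col18a1 differed by -1.16, 0.91 and -0.78 (adjusted p = 0.59, 0.60 and 0.48).

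Collagen chains are hydroxylated, folded, exported, trimmed and crosslinked by a set of enzymes and chaperones, of which 27 of 30 listed genes were measured. In Yap-on against Yap-off organoids 1 rose, P4ha1, and 1 fell, Serpinh1 (7.41% of the list, against 11.5% of all genes), and the median difference over the list was -0.38. P4ha1, a catalytic subunit of prolyl 4-hydroxylase, read 4.42, 4.49 and 5.57 in the Yap-off and 6.66, 6.46 and 6.07 in the Yap-on libraries, without overlap. The other libraries read between 6.24 and 8.01, above the Yap-off level. P4ha1 was 2.98-fold higher in Yap-on organoids (log2 difference 1.57, SE 0.42, limma adjusted p = 0.040). It was called under 8 of 14 alternatives, with adjusted p between 0.0042 and 0.15, and not after renewed quantile normalization. Its isoenzyme P4ha2 read 5.41, 5.74 and 5.59 in the Yap-off and 7.29, 7.63 and 6.91 in the Yap-on libraries. The shared spread was wide, with 9.01 in both of the libraries labelled hepatocyte 1 and 3, and the difference of 1.70 missed the threshold (SE 0.87, adjusted p = 0.24; 0.0009 on the 6 arrays).

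Serpinh1 encodes HSP47, the chaperone of procollagen, and was named after its values were seen. It read 5.39, 5.15 and 4.96 in the Yap-off and 4.10, 4.27 and 4.23 in the Yap-on libraries, which were the lowest 3 of the 12. It fell by 0.97 on the log2 scale (SE 0.23, limma adjusted p = 0.023) and was called under 9 of 14 alternatives. Pcolce, the enhancer of the C-propeptide protease, read 8.19, 9.61 and 9.70 in the Yap-off and 6.28, 6.56 and 6.71 in the Yap-on libraries. The difference was the largest of the list at -2.65 (SE 0.85, adjusted p = 0.077; 0.0029 on the 6 arrays). Bmp1, that protease itself, read 7.50, 7.22 and 7.28 against 5.76, 5.48 and 5.003 (difference -1.92, SE 0.89, adjusted p = 0.20). P3h1, a prolyl 3-hydroxylase, and Mia3, which loads procollagen into transport carriers, differed by -1.21 (adjusted p = 0.29) and -1.18 (adjusted p = 0.12). On the 6 arrays alone 2 of the list rose and 15 fell, against 31.2% of all genes called. Without both libraries that stand apart the counts were 2 and 13, against 29.7% of all genes. The call count was 2 without Yap-off organoid 3 and 0 without each of the other 5 Yap-off and Yap-on libraries. For these fits too the share of all genes called was not counted.

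**Figure D5:**
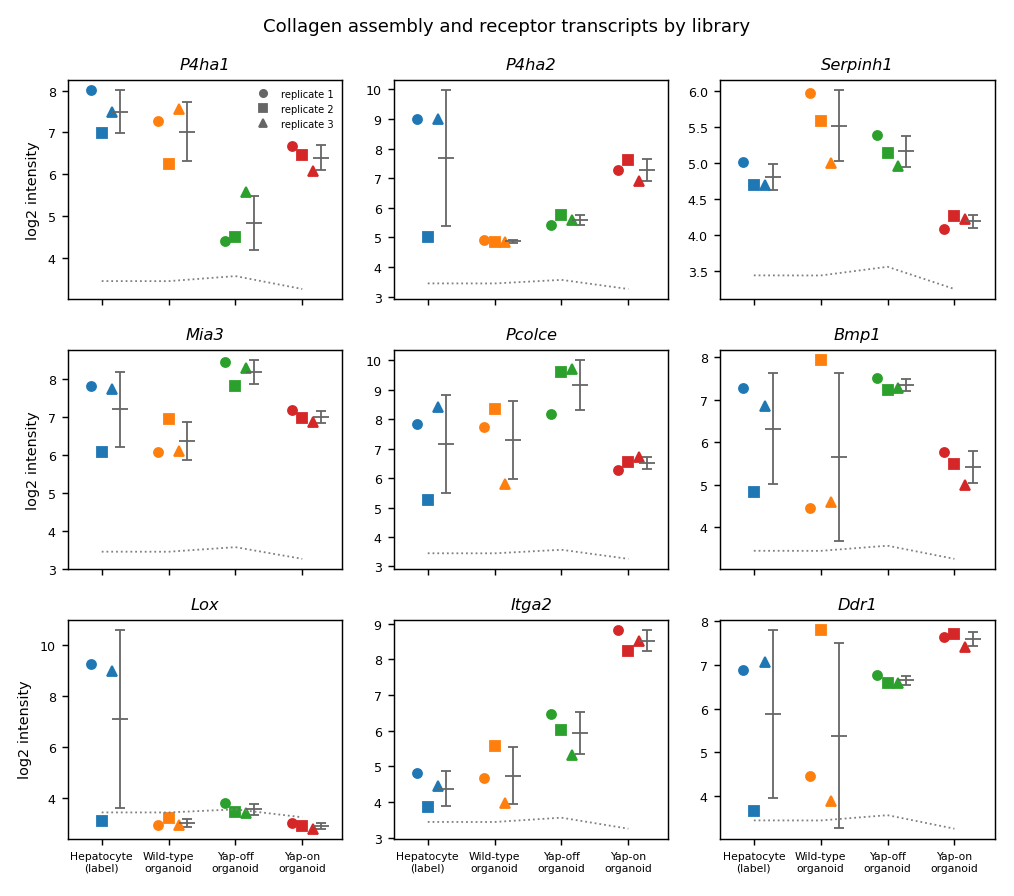
Log2 intensity of 7 collagen assembly genes and the receptors Itga2 and Ddr1 in each library, with group mean and SD (bars) and the mean background level of each group (dotted line). P4ha1 and Itga2 are higher and Serpinh1 lower in all 3 Yap-on than in all 3 Yap-off libraries. Axes differ between genes and do not start at 0.

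Of 10 listed collagen receptors 9 were measured, and 1 rose in Yap-on against Yap-off organoids (11.1%, against 11.5% of all genes called). Itga2, the alpha chain of the epithelial collagen-binding integrin, read 6.47, 6.03 and 5.32 in the Yap-off and 8.83, 8.23 and 8.52 in the Yap-on libraries. Every other library read between 3.86 and 5.57, so that Yap-on organoids were highest. Itga2 rose by a log2 difference of 2.59 against Yap-off organoids (SE 0.43, limma adjusted p = 0.0039) and was called under all 14 alternatives. Ddr1, the collagen receptor kinase of epithelia, read 6.76, 6.59 and 6.57 against 7.64, 7.71 and 7.41. The difference was 0.94 (SE 1.06, adjusted p = 0.60; 0.0013 on the 6 arrays). The stromal receptors Itga1 (-0.53), Itga11 (-0.41), Ddr2 (-0.26) and Mrc2 (-0.21) were not called. Itga1 was above background in 12 libraries, Itga11 in 3, Mrc2 in 1 and Ddr2 in 0. A change in Itga11, Mrc2 or Ddr2 would therefore be hard to see.

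Of 14 stellate cell and fibroblast genes, 2 fell in Yap-on against Yap-off organoids, Reln and Ngfr, against 11.5% of all genes called. Over the 14 stellate cell and fibroblast genes the summed intensity was 413 to 458 in the Yap-off and 142 to 147 in the Yap-on libraries. It was 224, 392 and 229 in those labelled hepatocyte and 489, 143 and 426 in wild-type organoids. Without Reln and Dcn the other 12 genes summed to 138 to 160 in the Yap-off and 121 to 125 in the Yap-on libraries. Differences were below 0 for 13 of 14 (92.9%), against 92.1% of the olfactory receptor genes, and the list median was -0.28, or -0.13 after renewed quantile normalization. Reln, a secreted matrix protein, read 7.89, 7.62 and 8.02 in the Yap-off and between 3.42 and 4.65 in all other libraries. Dcn, a small proteoglycan that binds collagen fibrils, read 5.24, 6.02 and 5.26 in the Yap-off and 3.34, 3.21 and 3.38 in the Yap-on libraries (adjusted p = 0.20 by limma). Pdgfra, Pdgfrb and Lum were the 3 of these 14 genes above background in 0 of 12 libraries. Reln, Cygb and Ngfr were above it in 12 libraries, Dcn, Des and Acta2 in 11, Tagln in 10 and Hand2 in 6. Lrat, Rgs5 and Tcf21 were above it in 3. The part of stromal cells in the collagen differences was not tested, and fewer cells of a type and less RNA per cell cannot be told apart in these bulk samples.

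The hepatocyte list (10 genes) summed to 30582 to 37913 in the Yap-off and 2899 to 3170 in the Yap-on libraries, and the biliary list (7 genes) to 1522 to 2107 and 10561 to 11917. Alb, the serum albumin gene, read 12.26, 12.42 and 12.54 in the Yap-off and 3.68, 3.29 and 3.31 in the Yap-on libraries. Not every gene of the hepatocyte list fell so far. Ttr read 12.26, 12.38 and 12.33 against 11.20, 11.32 and 11.29, and Hnf4a 9.41, 9.62 and 9.53 against 8.56, 8.64 and 8.42. Macrophage genes summed to 180 to 245 and 186 to 203, and Cdh5, the cadherin of endothelium, read at most 3.46 in all 6. In Yap-on organoids lower Col18a1, Col15a1 and Serpinh1 came with lower hepatocyte and higher biliary transcripts. Col18a1 went the other way with Krt19 under the hepatocyte label and in wild-type organoids. There it read 6.64, 6.91 and 6.18 in the libraries with high Krt19 and 5.05, 5.07 and 3.87 in those with low Krt19. Col15a1 and Serpinh1 overlapped between these libraries. The part of the hepatocyte and biliary shift in the collagen differences was not tested.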

How the data were processed

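RNA from 12 libraries was measured on Affymetrix MoGene 1.0 ST arrays. It was extracted with Qiagen microRNEasy and amplified with Nugen Pico WT, per the labels. The deposited intensities were made by the authors with RMA, per the submitters' processing notes, and are on a linear scale, so log2 was taken. Software and version are not given in the sources used here. Of 34760 array rows, 11799 outside the probe table and 1321 with several symbols were left out. Of 19937 genes, 954 had several rows.

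A model of the 4 group means was fitted to the log2 values of the 12 arrays with limma 3.58.1 under R 4.3.3 (residual degrees of freedom 8, prior 1.76). P-values were adjusted over 19937 genes (Benjamini-Hochberg) and called under 0.05. The number of arrays limits the precision. No 2 arrays were identical. The members and lists were chosen with earlier results of these data known. Values in every library were given for up to 3 collagens per class with the highest mean and those called in Yap-on against Yap-off organoids. Of the assembly and receptor lists, the 6 largest changes each were named, and of marker lists up to 4 genes with the highest mean. Cyp2e1, Hnf4a, Xist, Pdgfra, Pdgfrb and Lum were added. Alternatives were another scaling, row choice, low-value filter, subset of arrays, variance model or block, and leaving out each library. Figures were drawn with matplotlib 3.10.9.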

Additional observations from a re-analysis of the deposited data

How the results depend on the processing

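The collagen count of Yap-on against Yap-off organoids (4) was 1 of 38 without the 30% of genes with the lowest mean, 15 on the 6 arrays, 13 without both libraries that stand apart, and 1 to 9 leaving out single libraries. With the replicate number as a block it was 2. The share of all genes called was not counted for the low-value filter, the block or single libraries left out. The numbers were not taken to pair the samples, since deviations of the 18 same-numbered pairs correlated between -0.71 and 0.12, with 2 over 0.1.

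Without both libraries that stand apart the other counts (0 with all 12 arrays) were 5 for Yap-on and 8 for Yap-off against wild-type organoids. They were 4, 3 and 4 for wild-type, Yap-off and Yap-on organoids against the libraries labelled hepatocyte. Leaving out single libraries gave 0 to 3, 0 to 4, 0 to 1, 0 and 0 to 2 in that order. The highest counts came without wild-type organoid 2 (3 and 4) and without the library labelled hepatocyte 2 (1 and 2). Renewed quantile normalization gave 2 and centring 1 for Yap-off against wild-type organoids. The assembly count (2) was 17 on the 6 arrays, 15 without both libraries and 0 to 2 leaving out 1 library. The cause was not tested.

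Some small differences changed sign. For Yap-on minus Yap-off, renewed quantile normalization gave 0.16 for Col11a1, 0.078 for Col28a1, -0.051 for Col4a1, 0.10 for Col6a3 and 0.045 for Col8a1, and centring 0.026 for Col11a1. Leaving out single libraries gave -0.066 to 0.026 for Col11a1, -0.38 to 0.038 for Col23a1, -0.13 to 0.0099 for Col6a3 and -0.20 to 0.020 for Col8a1. The values above 0 came without Yap-off organoid 3, or for Col6a3 without Yap-off organoid 2. Against wild-type organoids, leaving out single libraries gave -0.21 (without wild-type organoid 3) to 0.95 for Col18a1 in Yap-on organoids. For Col4a5 it gave -0.997 to 0.33 in Yap-on and -0.49 to 0.84 in Yap-off organoids, the higher values without wild-type organoid 2 and without both libraries. After quantile normalization Col4a5 was 0.14 in Yap-off organoids. For Col12a1 in Yap-off organoids the range was -0.091 to 0.75, and values below 0 came without Yap-off organoid 1 or wild-type organoid 1 or 3. Of the other values of single genes under all alternatives, 839 kept direction and side of the threshold, 54 newly passed it and 34 no longer did. Probes near background limit what can be seen for many collagens, although 27 of 44 were above the background level in every library. The same held for 10363 of all 19937 genes.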
